A study of Mus musculus with 12 samples.

Results

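The genes described are 6 ligands of the bone morphogenetic protein (BMP) family, *Bmp2*, *Bmp4*, *Bmp5*, *Bmp6*, *Bmp7* and *Bmp8b*, and 4 targets of BMP signalling, *Id1*, *Id2*, *Id3* and *Smad6*. They were chosen by name, as every probe whose gene name on the array is one of these 10 symbols, and were read in all 4 groups of a study of *Sox7* in mouse cells. They are 10 of 34836 gene names and were read by 11 of the 55681 probes, *Bmp4* by 2 and the others by 1 each. In cells without *Sox7*, the switch from embryonic stem (ES) cells to extraembryonic endoderm-like (XEN-like) cells came with a higher response of *Bmp2* and of 3 of the 4 targets, *Id1*, *Id2* and *Smad6*, than in cells with 1 copy of *Sox7*. For *Bmp2* and *Id2* part of this was a lower level in ES cells without *Sox7*. In XEN-like cells *Bmp2* was under 2-fold higher without *Sox7*, and so were *Id1* and *Id2* when 1 array was left out. The fall of *Bmp4* and *Bmp7* was called both with 1 copy of *Sox7* and without it.

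BMP ligands are secreted dimers that bring type I and type II receptor kinases together, and the type I kinase phosphorylates Smad1, Smad5 and Smad9, which enter the nucleus with Smad4. *Id1*, *Id2* and *Id3* are among the most direct targets. Their products are helix-loop-helix proteins without a DNA-binding region that hold E proteins away from DNA. *Smad6*, also a direct target, encodes an inhibitory Smad that feeds back on the receptors and on Smad1. In mouse ES cell culture, BMP4 together with LIF holds back differentiation through Id genes, and in the early embryo BMP signals take part in the formation of visceral endoderm, the epithelium that wraps the epiblast.

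All cells carried Gata6GR, full-length mouse *Gata6* fused to the ligand-binding domain of the human glucocorticoid receptor under the CAG promoter, whose product moves to the nucleus when dexamethasone (Dex) is added. The *Sox7* (+/−) cells came from 1 ES cell clone in which the coding region of 1 *Sox7* allele had been replaced by a puromycin resistance cassette, and *Sox7* (−/−) cells were obtained from that line after selection in a high dose of puromycin, so each genotype is 1 line and genotype and line cannot be told apart. The 4 groups, of 3 arrays each, were the ES and the XEN-like cells of each genotype. ES cells were kept without Dex and XEN-like cells were taken at day 4 with Dex, both in medium with LIF. No group received Dex without Gata6GR, so the effects of Dex and of Gata6 activity cannot be told apart.

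RNA was read on 12 one-colour Agilent arrays, and each level below is a relative signal, the background-subtracted signal in % of the 75th percentile of the same array. Differences are log2 differences of these values, fitted with limma to all 12 arrays, and a difference was called when its Benjamini-Hochberg adjusted p over 25938 tested probes was under 0.05 and its size over 2-fold. The 75th percentile lay between 252.3 and 415.9 intensity units and 41.7% to 52.3% of spots were well above background, the scanner software's own test of a spot against its surroundings. Levels of different probes cannot be set against each other. All 6 *Sox7* (−/−) arrays were not well above background for *Sox7*, which had levels of 224 ± 5.42% before and 558 ± 113% after Dex in *Sox7* (+/−) cells (SD, n = 3 each). Of 6 ES cell genes, 5 fell with Dex in each genotype, and *Nanog* and *Sox2* were well above background on no XEN-like array. *Pou5f1*, *Esrrb*, *Klf4* and *Zfp42* were well above background on every XEN-like array, and *Klf4* rose with Dex in *Sox7* (+/−) cells. Of 10 extraembryonic endoderm genes, 8 rose with Dex in *Sox7* (+/−) cells, *Gata4*, *Sox17* and *Foxa2* among them. No label says that replicates were separate cultures, and for the ES arrays of *Sox7* (+/−) cells the source field gives number 1 every time where the titles give 1 to 3, so the p-values measure only the spread between these arrays. In bulk RNA, fewer cells of a type and less RNA per cell cannot be told apart.

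*Sox7* (+/−) XEN-like replicate 3 stood apart from the other 2 arrays of its group. Its correlation with them was the lowest of any replicate pair (Pearson's r = 0.982 across probes), the median SD of a probe was 0.20 on the log2 scale in that group against 0.09 to 0.11 in the others, and it was the lowest of its group for *Bmp2*, *Bmp4*, *Id1*, *Id2*, *Id3* and *Smad6* and the highest for *Bmp6*, *Bmp7* and *Bmp8b*. On the same array *Pou5f1*, an ES cell gene, was at 177%, against 61.1% and 71.3% on replicates 1 and 2. *Gata6* was at 1071% against 1844% and 1984%, and *Gata4* and *Hnf4a* were also lowest there. *Sox7*, another endoderm gene, was highest there, at 688% against 490% and 495%. The *Pou5f1* probe also varied in *Sox7* (−/−) cells. Replicates 1 to 3 were at 444%, 202% and 148% as XEN-like cells and 3519%, 1636% and 1617% as ES cells. The part of these differences in the results was not tested, and values without this array are given where they change a call.

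The sequences before the start sites of 3 of the targets that rose together in *Sox7* (−/−) cells, *Id2*, *Id3* and *Smad6*, and of *Bmp4*, the ligand with the deepest fall, are shown because the main contrasts between the groups turn on these genes. Each is the 250 bases before the RefSeq start on GRCm38.p6, 5′ to 3′ on the strand of the gene, and capitals mark every match on either strand to GGCGCC or GGAGCC, GC-rich elements that BMP Smads bind, or to CAGAC, which holds a Smad-binding core.
*Id2*, chr12:25096093-25096342, minus strand: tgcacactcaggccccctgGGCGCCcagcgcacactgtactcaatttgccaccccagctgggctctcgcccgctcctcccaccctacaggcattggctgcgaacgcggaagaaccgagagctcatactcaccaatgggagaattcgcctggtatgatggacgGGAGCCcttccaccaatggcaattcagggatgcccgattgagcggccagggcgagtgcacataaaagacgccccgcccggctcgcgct
*Id3*, chr4:136143572-136143821, plus strand: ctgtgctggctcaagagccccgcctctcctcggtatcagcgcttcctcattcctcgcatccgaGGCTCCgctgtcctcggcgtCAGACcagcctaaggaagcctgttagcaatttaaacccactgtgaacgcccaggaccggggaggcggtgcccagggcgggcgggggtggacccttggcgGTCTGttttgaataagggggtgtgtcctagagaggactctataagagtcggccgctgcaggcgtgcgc
*Smad6*, chr9:64022060-64022309, minus strand: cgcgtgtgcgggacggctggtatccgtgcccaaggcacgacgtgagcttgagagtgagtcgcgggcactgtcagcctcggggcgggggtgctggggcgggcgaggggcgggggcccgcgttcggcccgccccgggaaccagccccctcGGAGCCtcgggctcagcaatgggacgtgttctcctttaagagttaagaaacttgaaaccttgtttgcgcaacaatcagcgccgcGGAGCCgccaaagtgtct
*Bmp4*, chr14:46390670-46390919, minus strand: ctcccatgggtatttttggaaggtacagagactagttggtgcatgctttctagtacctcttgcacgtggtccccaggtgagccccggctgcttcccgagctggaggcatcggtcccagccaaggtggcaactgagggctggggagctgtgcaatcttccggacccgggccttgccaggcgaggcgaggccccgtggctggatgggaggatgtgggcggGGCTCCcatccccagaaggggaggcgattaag

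Of the 10 genes, 7 had an entry in the promoter table. *Bmp2*, *Bmp7* and *Id1* did not. GGCGCC lay in 1 of the 7 windows, that of *Id2*, where it begins 231 bases before the start, and in 9.59% of the 32851 windows of all genes. GGAGCC lay in 5 of the 7, *Bmp4*, *Bmp8b*, *Id2*, *Id3* and *Smad6*, and in 26% of all windows. These 5 windows were 62.8% to 66.8% G or C, beside a median of 52.4% over all windows, and the shares were not matched for this. CAGAC lay in 4, *Bmp5*, *Bmp6*, *Bmp8b* and *Id3*, and in 42.2% of all. The GATA core in the forms AGATAA and TGATAA and the SOX core ACAATG were in 0 of the 7 and in 3281, 2609 and 3512 of the 32851 windows, which says only that these letters are not in these windows. The matches are descriptions of letters, not of sites in use.

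*Bmp2*, a ligand of many mesodermal and endodermal tissues, was the only ligand of the 5 tested that rose with Dex, and it did so in both genotypes. Its probe lies on chromosome 2 from 133388260 to 133388319 (mm9, as for all probes). In *Sox7* (+/−) cells its relative signal was 188%, 171% and 187% on the 3 ES arrays and 1055%, 993% and 961% on the 3 XEN-like arrays. In *Sox7* (−/−) cells it was 61.2%, 59.4% and 71.2% on the ES arrays and 1878%, 1785% and 1804% on the XEN-like arrays. All 4 groups were apart from each other, with *Sox7* (−/−) cells the lowest in the ES state and the highest in the XEN-like state. The rise was 2.46 in *Sox7* (+/−) cells (SE 0.08, adjusted p = 3.4e-09) and 4.84 in *Sox7* (−/−) cells (SE 0.08, adjusted p = 3.7e-11). The rise in *Sox7* (−/−) cells was the larger by 2.38 (SE 0.12, adjusted p = 7.2e-07). That difference was made up of a level lower by 1.52 in ES cells, which was called (adjusted p = 6.5e-07), and higher by 0.86 in XEN-like cells, which passed the adjusted p (4.6e-05) but was under 2-fold. The XEN-like difference was called at 1.11 after spike-in scaling and at 1.22 with the values of the deposited table.

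*Bmp4*, the ligand that ES cells make themselves, went the other way. It was read by a brighter probe on chromosome 14 from 47003391 to 47003450 and by a second one from 47003198 to 47003257 that was well above background on 0 of the 12 arrays. The bases of the second probe are 15% G or C, against 38.3% for the brighter one, and it was not tested. On the brighter probe, *Sox7* (+/−) ES cells were at 1293%, 1415% and 1408%, and the XEN-like arrays at 40.5%, 33.4% and 9.60%, the last of which, replicate 3, was not well above background. *Sox7* (−/−) ES cells were at 4014%, 4098% and 3979% and the XEN-like cells at 40.5%, 30.02% and 30.1%. ES and XEN-like arrays were thus far apart in both genotypes, and the XEN-like arrays of the genotypes overlapped. The fall was −5.87 (SE 0.43, adjusted p = 9.4e-07) in *Sox7* (+/−) and −6.92 (SE 0.43, adjusted p = 2.1e-07) in *Sox7* (−/−) cells. In ES cells *Bmp4* was higher in *Sox7* (−/−) cells by 1.56 (SE 0.43, adjusted p = 0.014). That call was lost with the slide as a block (1.13, adjusted p = 0.40) and with scaling by spike-in controls (1.40). The summed signal of 6 ES cell genes moved with it and was 21316% to 22491% in *Sox7* (+/−) and 45086% to 48409% in *Sox7* (−/−) ES cells, and its part in the result was not tested. With normexp background correction the falls were −4.67 and −6.12. The difference between the falls was −1.06 (95% confidence interval −2.40 to 0.29, adjusted p = 0.22), and without *Sox7* (+/−) XEN-like replicate 3 it was −1.70 and called.

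*Bmp6*, a ligand close in sequence to *Bmp5* and *Bmp7*, fell with Dex in *Sox7* (+/−) cells, and less steeply in *Sox7* (−/−) cells. Its probe is on chromosome 13 from 38591479 to 38591538. The *Sox7* (+/−) ES arrays read 134%, 145% and 120% and XEN-like cells at 28.8%, 21.0% and 36.3%. In *Sox7* (−/−) cells the ES arrays read 181%, 199% and 167% and XEN-like cells at 106%, 89.5% and 95.1%. No XEN-like array of *Sox7* (+/−) cells came near those of *Sox7* (−/−) cells. The change was −2.25 (SE 0.17, adjusted p = 1.5e-06) and −0.92 (SE 0.17, adjusted p = 9.1e-04), the latter under 2-fold. In XEN-like cells *Bmp6* was 3.45-fold higher in *Sox7* (−/−) cells, a log2 difference of 1.79 (SE 0.17, adjusted p = 5.3e-05). The responses differed by 1.33 (SE 0.25, adjusted p = 0.0033). With normexp background correction that difference was 0.76 and was not called, the change in *Sox7* (+/−) cells was −1.49 and the XEN-like difference 1.08, both called.

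*Bmp7*, another ligand of this subgroup, on chromosome 2 from 172695203 to 172695262, fell with Dex in both genotypes. It was at 65.4%, 66.9% and 60.6% in *Sox7* (+/−) ES cells and at 11.4%, 9.36% and 15.9% in the XEN-like cells, where replicate 2 was not well above background. In *Sox7* (−/−) cells it was at 67.1%, 74.4% and 71.3%, and at 11.3%, 9.46% and 10.1% with Dex. The XEN-like arrays of the genotypes overlapped. The falls were −2.43 (SE 0.16, adjusted p = 5.1e-07) and −2.79 (SE 0.16, adjusted p = 1.4e-07), and −1.23 and −1.65 with normexp background correction. The difference between them was −0.36 (95% confidence interval −0.87 to 0.15, adjusted p = 0.28). In ES cells *Bmp7* differed between the genotypes by 0.14 (95% confidence interval −0.22 to 0.50).

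*Bmp8b*, which the extraembryonic ectoderm makes in the embryo, differed between the genotypes before Dex. Its probe, on chromosome 4 from 122803275 to 122803334, was at 146%, 146% and 158% in *Sox7* (+/−) and 28.6%, 22.2% and 26.3% in *Sox7* (−/−) ES cells. XEN-like cells of both genotypes were near the background, at 9.78%, 13.1% and 19.6% in *Sox7* (+/−) cells, with replicate 3 alone well above background, and at 18.4%, 9.36% and 13.9% in *Sox7* (−/−) cells, with replicate 2 not well above it. So the ES arrays of the genotypes were apart and the XEN-like arrays overlapped. In ES cells *Bmp8b* was lower in *Sox7* (−/−) cells by −2.55 (SE 0.27, adjusted p = 6.3e-05). The change with Dex was −3.46 (SE 0.27, adjusted p = 1.6e-06) in *Sox7* (+/−) and −0.94 (adjusted p = 0.011, under 2-fold) in *Sox7* (−/−) cells. The latter was −1.04 without ES replicate 2 and −1.16 without XEN-like replicate 1 of these cells, and called there. The difference between these responses, 2.53 (SE 0.38, adjusted p = 0.0010), came with XEN-like levels that differed by −0.02 (95% confidence interval −0.63 to 0.58). With normexp background correction the fall in *Sox7* (+/−) cells was −2.04, the difference between the responses 1.64 and the difference in ES cells −1.80, all called.

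*Bmp5*, on chromosome 9 from 75746444 to 75746503, was at 1.55% to 4.57% and well above background on 0 of the 12 arrays, so it was not tested.

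**Figure D1:**
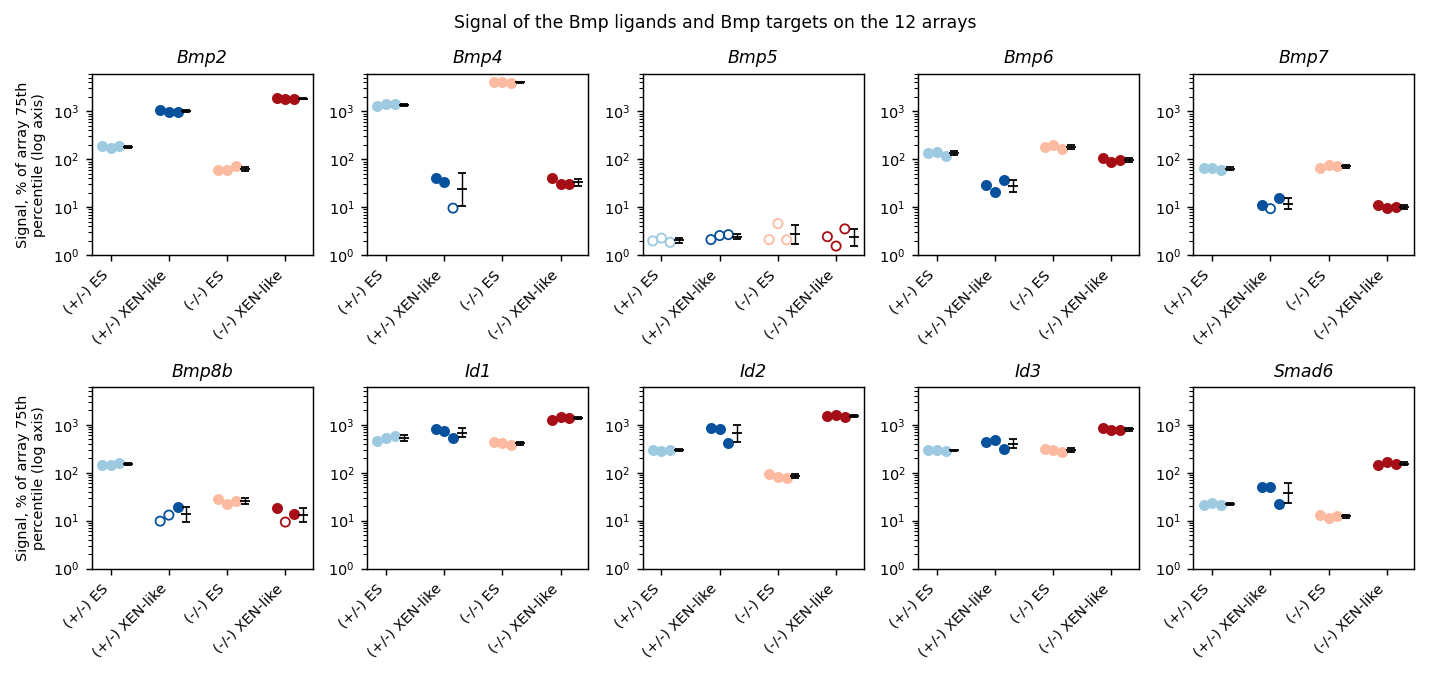
Relative signal (% of the array's 75th percentile, log axis) of the 10 genes on the 12 arrays, by group. Each point is 1 array, open points were not well above background, and the black bar beside each group is the mean ± SD of the log2 values (n = 3). For *Bmp2*, *Id2* and *Smad6* the *Sox7* (−/−) cells are the lowest group as ES cells and the highest as XEN-like cells. *Bmp4* falls from 1293% or more in ES cells to 40.5% or less in XEN-like cells.

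*Id2*, an Id gene of many epithelia, had the largest difference in response of the 4 targets. Its probe is on chromosome 12 from 25778904 to 25778963. *Sox7* (+/−) ES cells were at 298%, 280% and 303% and XEN-like cells at 846%, 823% and 415%, the last being replicate 3. *Sox7* (−/−) ES cells were at 93.6%, 80.2% and 77.9% and XEN-like cells at 1508%, 1620% and 1475%. Even the lowest *Sox7* (−/−) XEN-like array was above every *Sox7* (+/−) array, and every *Sox7* (−/−) ES array was below them. The rise was 1.17 (SE 0.23, adjusted p = 0.0012) in *Sox7* (+/−) and 4.20 (SE 0.23, adjusted p = 8.0e-08) in *Sox7* (−/−) cells, and the difference was 3.02 (SE 0.32, adjusted p = 1.1e-04). It was −1.81 (adjusted p = 1.8e-04) in ES cells and 1.21 (adjusted p = 0.0029) in XEN-like cells between *Sox7* (−/−) and *Sox7* (+/−). Without *Sox7* (+/−) XEN-like replicate 3 the XEN-like difference was 0.88 and under 2-fold, and the rise in *Sox7* (+/−) cells was 0.99 without replicate 1 and 0.69 with scaling by spike-in controls.

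*Smad6*, the inhibitory Smad, followed the same order of groups at a dimmer probe, on chromosome 9 from 63800980 to 63801039. In *Sox7* (+/−) cells it was at 21.5%, 23.8% and 21.3% on the ES arrays and 50.0%, 50.1% and 22.2% on the XEN-like arrays. Without *Sox7* the ES arrays read 13.1%, 11.2% and 12.8%, and XEN-like cells at 147%, 166% and 155%. The *Sox7* (−/−) XEN-like arrays were above all others, while *Sox7* (+/−) XEN-like replicate 3 lay among the ES arrays of its genotype. *Smad6* rose by 3.66 (SE 0.26, adjusted p = 6.3e-07) in *Sox7* (−/−) cells. In *Sox7* (+/−) cells the change was 0.78 (adjusted p = 0.023), under 2-fold, and it was 1.18 and called without replicate 3. XEN-like cells of the genotypes differed by 2.03 (SE 0.26, adjusted p = 3.2e-04), a 4.07-fold higher level in *Sox7* (−/−) cells, and by 1.63 without *Sox7* (+/−) replicate 3. The difference between the responses was 2.87 (SE 0.37, adjusted p = 3.7e-04), and it was 1.81 with normexp correction and 2.32 with values as deposited. The rise in *Sox7* (−/−) cells was 2.43 and 2.58 at these settings.

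*Id1*, the Id gene most used as a readout of BMP signalling, on chromosome 2 from 152563083 to 152563142, was at 465%, 539% and 596% in *Sox7* (+/−) ES cells and at 796%, 732% and 534% in the XEN-like cells. The *Sox7* (−/−) arrays were at 443%, 411% and 381% and at 1281%, 1428% and 1378%. In *Sox7* (+/−) cells ES and XEN-like arrays overlapped through replicate 3, and in *Sox7* (−/−) cells they did not. The change was 0.35 (95% confidence interval 0.03 to 0.68, adjusted p = 0.058) in *Sox7* (+/−) and 1.73 (SE 0.15, adjusted p = 2.5e-06) in *Sox7* (−/−) cells, which differed by 1.37 (SE 0.21, adjusted p = 0.0010). The 0.35 had the opposite sign, −0.13, with scaling by spike-in controls. In XEN-like cells *Id1* was higher in *Sox7* (−/−) cells by 1.01 (SE 0.15, adjusted p = 7.1e-04), just over 2-fold. This difference was 0.94 with quantile normalization, 0.83 without *Sox7* (+/−) replicate 3, 0.97 without *Sox7* (−/−) replicate 2 and 0.996 without *Sox7* (−/−) replicate 3, all under 2-fold.

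*Id3*, the third Id gene, on chromosome 4 from 135700075 to 135700249, a span longer than the 60 bases of the probe, was at 294%, 296% and 285% in *Sox7* (+/−) ES cells and 441%, 475% and 312% in XEN-like cells. In *Sox7* (−/−) cells it was at 320%, 298% and 265%, and at 868%, 769% and 767% with Dex. ES arrays of the genotypes overlapped, with a difference of 0.01 (95% confidence interval −0.31 to 0.33), and XEN-like arrays did not. It rose by 1.45 (SE 0.14, adjusted p = 8.1e-06) in *Sox7* (−/−) cells, and the change was 0.46 (adjusted p = 0.017) in *Sox7* (+/−) cells, or −0.02 with scaling by spike-in controls. The XEN-like difference, 0.99 (SE 0.14, adjusted p = 6.8e-04), and the difference between the responses, 0.98 (SE 0.20, adjusted p = 0.0060), passed the adjusted p and were just under 2-fold. Scaling by spike-in controls gave 1.23 and 1.38, and values as deposited gave 1.43 and 1.41, all called. Leaving out *Sox7* (+/−) XEN-like replicate 1 or 2 or *Sox7* (−/−) XEN-like replicate 2 or 3 also moved the XEN-like difference over 2-fold (1.06, 1.11, 1.02 and 1.02), while it was 0.81 without *Sox7* (+/−) replicate 3. The same 4 arrays, and *Sox7* (−/−) ES replicate 1, did so for the difference between the responses, which lay between 0.80 and 1.10 with any 1 array left out.

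Over the members as a list, 9 of the 10 were tested. With Dex 6 were called in *Sox7* (+/−) cells, *Bmp2* and *Id2* higher and 4 lower, where 24.9% of all tested probes were called. In *Sox7* (−/−) cells 7 were called, *Bmp2*, *Id1*, *Id2*, *Id3* and *Smad6* higher and *Bmp4* and *Bmp7* lower, against 28.8% of all. The median log2 change of the 9 was 0.35 and 1.45, beside 0.16 and 0.07 for all tested probes. At an adjusted p under 0.05 and any fold 8 of the 9 passed in *Sox7* (+/−) cells, where 62.8% of all did, and 9 in *Sox7* (−/−) cells, where 65.3% did. The comparisons of the genotypes use separate arrays.

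**Figure D2:**
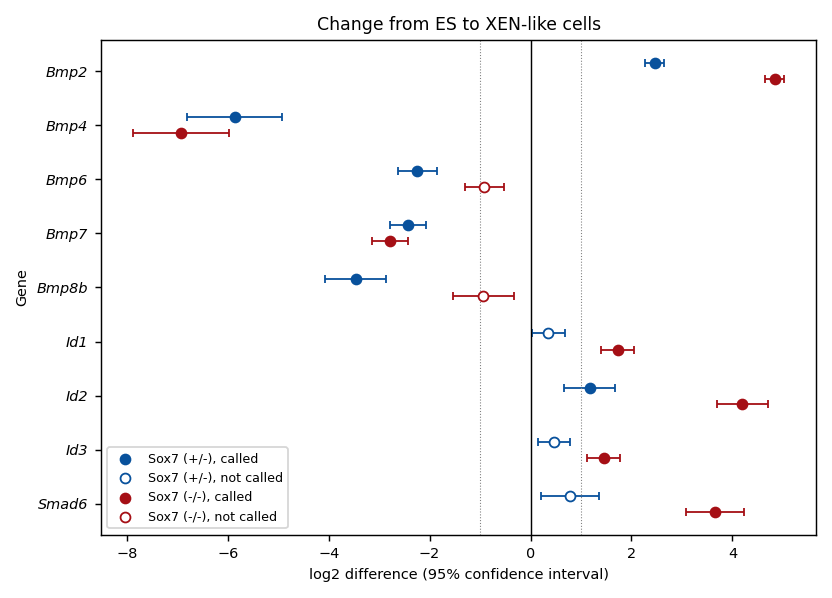
Log2 change with Dex (XEN-like over ES cells) of the 9 tested genes in each genotype, with 95% confidence intervals from limma. Filled points were called (adjusted p under 0.05 and over 2-fold), and dotted lines mark 2-fold. The 4 targets lie between 0.35 and 1.17 in *Sox7* (+/−) cells and between 1.45 and 4.20 in *Sox7* (−/−) cells.

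Tested directly, the response to Dex was higher in *Sox7* (−/−) cells for 6 members, *Bmp2*, *Bmp6*, *Bmp8b*, *Id1*, *Id2* and *Smad6*, and lower for 0, where 9.79% of all probes were called, 6.62% higher and 3.17% lower. For *Bmp6* and *Bmp8b*, which went down with Dex in both genotypes, this was a smaller fall in *Sox7* (−/−) cells. At any fold 7 of the 9 passed the adjusted p, beside 27.3% of all. The median difference was 1.37, beside −0.09 for all. *Bmp4* was called lower without *Sox7* (+/−) XEN-like replicate 3, with normexp correction and with values as deposited. In XEN-like cells 4 members were called between the genotypes, *Bmp6*, *Id1*, *Id2* and *Smad6*, all higher in *Sox7* (−/−) cells, where 7.5% of all probes were called, 3.86% higher and 3.64% lower. At any fold 6 passed, beside 34.5% of all, and the median was 0.99 beside 0.00. The count was 2, *Bmp6* and *Smad6*, without *Sox7* (+/−) XEN-like replicate 3. Between the ES cells 4 were called, *Bmp4* higher and *Bmp2*, *Bmp8b* and *Id2* lower in *Sox7* (−/−) cells, where 8.62% of all were called, 1.95% higher and 6.67% lower. At any fold 5 passed, beside 45.1% of all, and the median was −0.37 beside 0.10. The ES, XEN-like and response comparisons share arrays.

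**Figure D3:**
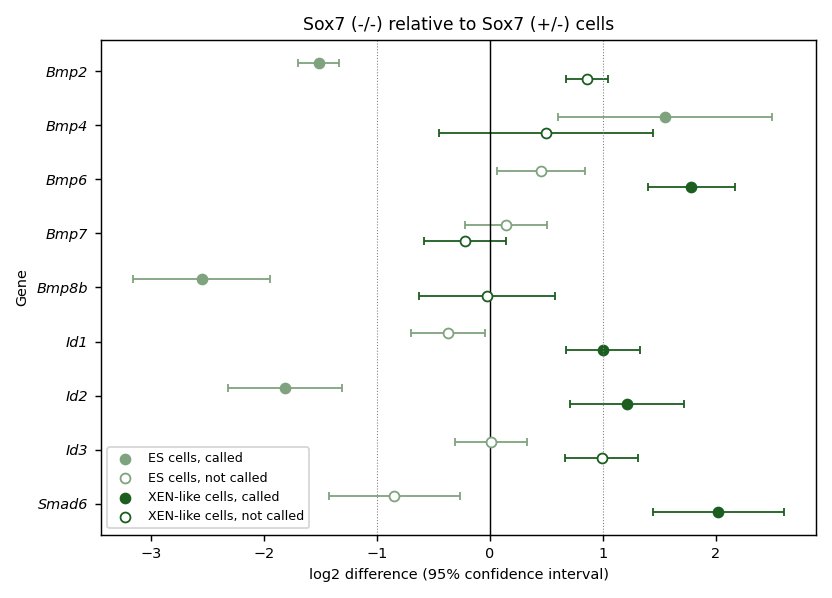
Log2 difference between *Sox7* (−/−) and *Sox7* (+/−) cells of the 9 tested genes in ES and in XEN-like cells, with 95% confidence intervals from limma, where filled points were called and dotted lines mark 2-fold. *Bmp2* lies at −1.52 in ES cells and 0.86 in XEN-like cells, and *Id2* at −1.81 and 1.21. *Bmp7* has intervals that include 0 in both.

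The arrays lay on 2 slides, and slide 1 held the 3 ES arrays of *Sox7* (−/−) cells with XEN-like replicate 1 of that genotype, while slide 2 held the other 8. No slide held ES cells of both genotypes, so this comparison has no within-slide value. With the slide as a block the difference in ES cells was −1.58 for *Bmp2*, −3.24 for *Bmp8b* and −1.78 for *Id2*. Only the *Sox7* (−/−) XEN-like group lay on both slides, so the slide effect in these values rests on its replicate 1, the 1 array on slide 1. Within slide 2 the XEN-like difference was 1.72 for *Bmp6*, 1.05 for *Id1*, 1.23 for *Id2* and 2.07 for *Smad6*, each called. Within slide 1, with 1 XEN-like array, the rise in *Sox7* (−/−) cells was 4.88 for *Bmp2*, 1.64 for *Id1*, 4.17 for *Id2*, 1.56 for *Id3* and 3.57 for *Smad6*. The *Sox7* (+/−) arrays were all on slide 2. With the slide as a block the difference in response was 2.42 for *Bmp2*, 1.46 for *Bmp6*, 2.99 for *Bmp8b*, 1.29 for *Id1*, 3.001 for *Id2*, 1.10 for *Id3* and 2.79 for *Smad6*, all called. Each of these rests on 1 array, XEN-like replicate 1, for the response of *Sox7* (−/−) cells, which is assumed to vary like the other groups.

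Markers of visceral endoderm differed between the genotypes in the direction of the targets. In *Sox7* (+/−) cells the summed signal of 10 such genes was 8749% to 8981% in ES cells and lower with Dex. Of the 8 tested, *Ttr*, *Ihh* and *Rbp4* rose and 4 fell, *Amn*, *Cubn* and *Cdh1* among the latter by −2.08, −1.85 and −3.82. There 24.9% of all tested probes were called. The summed signal of the 4 targets was 1079% to 1205% and then 1284% to 2133%, and of these only *Id2* was called. The visceral sum was 6583% to 7449% in *Sox7* (+/−) XEN-like cells and 23006% to 25050% in *Sox7* (−/−) XEN-like cells. Of the 8 tested, 6 were higher in *Sox7* (−/−) XEN-like cells, beside 3.86% of all tested probes. Of the defining markers of visceral endoderm, *Afp* and *Apoa1* were well above background on no array and *Apob* on no XEN-like array. *Ttr* and *Hnf4a* were higher by 1.63 and 1.43 in *Sox7* (−/−) XEN-like cells. The sum of 8 parietal endoderm genes went the other way, at 247468% to 279396% in *Sox7* (+/−) and 211626% to 225806% in *Sox7* (−/−) XEN-like cells, with 1 of 8 called, *Vim*, which was lower by −1.16. In *Sox7* (−/−) ES cells the visceral sum was 5329% to 5999%. Of the 8 tested visceral genes, 4 were lower there than in *Sox7* (+/−) ES cells and 0 higher, beside 6.67% and 1.95% of all tested probes. The sum of 10 extraembryonic endoderm genes was 33633% to 34498% in *Sox7* (+/−) and 24189% to 25577% in *Sox7* (−/−) ES cells. Their part in the levels of *Bmp2*, *Id2* and the other members was not tested. Of 7 genes known to respond to glucocorticoids, 1 rose and 2 fell with Dex in each genotype. *Zbtb16* rose by 1.85 and 1.24, and *Fkbp5*, usually induced by the hormone, fell by −2.20 and −2.09.

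The rest of the pathway was read over 69 other genes, of which 50 were tested. With Dex 20 rose and 4 fell in *Sox7* (+/−) cells, where 24.9% of all tested probes were called. In *Sox7* (−/−) cells 18 rose and 6 fell, where 28.8% of all were called. Responses differed between the genotypes for 7, 5 higher and 2 lower in *Sox7* (−/−) cells, beside 9.79% of all. Among the 5 higher, *Hand1* was well above background on no XEN-like array and *Gdf6* on no *Sox7* (−/−) ES array. Their differences in response thus rest on signals near background. XEN-like cells differed for 7, 4 higher and 3 lower, beside 7.5% of all. ES cells differed for 9, all lower in *Sox7* (−/−) cells, beside 8.62% of all. Of these 9, *Gdf6* was well above background on no *Sox7* (−/−) and 2 of 3 *Sox7* (+/−) ES arrays, and its bound was at least 1.03-fold. The medians of the 50 were 0.50 and 0.49 for the Dex responses and 0.06 for their difference, beside 0.16, 0.07 and −0.09 over all tested probes. The shares of all tested probes called also stand beside the counts of the shorter lists below.

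Among 8 other ligands, 4 were tested and 2 rose in both genotypes. *Gdf2*, which encodes BMP9, was not well above background on any ES array. With Dex it rose at least 16.6-fold where 1 copy of *Sox7* was left and at least 7.09-fold where none was, to 130 ± 86.5% and 64.7 ± 3.82% (SD, n = 3). *Gdf6*, a ligand of joints and eye, rose by 4.65 in *Sox7* (+/−) cells and at least 22.4-fold in *Sox7* (−/−) cells. *Bmp3*, *Bmp10* and *Bmp15* were well above background on no array.

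Of 12 receptors and co-receptors 10 were tested. In each genotype 3 rose with Dex, *Bmpr2*, *Acvr1* and *Tgfbr3*, and *Eng* fell. The type II receptor *Bmpr2* rose by 1.58 and 2.45 and the type I receptor *Acvr1* by 2.01 and 1.68. *Tgfbr3*, the co-receptor betaglycan, rose by 2.37 and 4.24, and its responses differed by 1.87 (adjusted p = 0.0026). The type I receptor *Bmpr1a* changed by 0.47 in both, under 2-fold, and *Bmpr1b* was well above background on no XEN-like array. *Eng*, the co-receptor endoglin, fell by −1.85 and −1.69. None of the 10 was called between the genotypes in XEN-like cells, where *Bmpr2* differed by −0.26 (adjusted p = 0.19). Of the Smads that carry the signal, *Smad4* rose by 1.01 in *Sox7* (+/−) cells. *Smad1* and *Smad5* were not called in any of the 5 comparisons, and between XEN-like cells they differed by 0.60 (adjusted p = 0.068) and 0.19 (adjusted p = 0.19).

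Inhibitors outside the cell were 18, with 12 tested, and 5 rose and 0 fell in each genotype. *Fst*, which binds activins and some BMPs, rose by 5.09 and 5.93, from 816 ± 23.3% to 28059 ± 4027% in *Sox7* (+/−) and from 271 ± 9.78% to 16507 ± 295% in *Sox7* (−/−) cells (SD, n = 3). *Bmper* rose by 2.60 and 2.49. *Crim1*, a membrane protein that binds BMPs, rose by 1.53 and 3.23, a difference of 1.70 (adjusted p = 6.4e-04), and was lower by −2.66 in *Sox7* (−/−) ES cells. *Nog*, the antagonist noggin, changed by 0.90, under 2-fold, and 1.06, which was called. *Fstl1* responded less in *Sox7* (−/−) cells, by −1.22 (adjusted p = 0.012).

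Inside the cell, *Smad7*, the other inhibitory Smad, moved opposite to *Smad6* with Dex. It fell by −2.62 in *Sox7* (+/−) cells, from 341 ± 35.4% to 55.6 ± 6.68%, and by −2.13 in *Sox7* (−/−) cells, from 557 ± 34.5% to 128 ± 5.92% (SD, n = 3). It was higher by 1.21 in *Sox7* (−/−) XEN-like cells (adjusted p = 2.8e-05), the same direction there as *Smad6*. The Smad corepressor *Skil* fell by −1.90 and −1.28, and *Tob1*, which binds Smads, rose by 1.62 and 1.42. *Bambi*, a pseudoreceptor and BMP target, was well above background on no array.

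Of 10 further BMP targets 8 were tested, and 4 rose and 1 fell in *Sox7* (+/−) cells, and 4 rose and 3 fell in *Sox7* (−/−) cells. *Gata3*, a trophoblast and surface ectoderm factor, rose by 1.05 and 4.25, was lower by −1.97 in *Sox7* (−/−) ES cells and higher by 1.22 in the XEN-like cells, and its responses differed by 3.20 (adjusted p = 3.5e-05). *Id4*, the fourth Id gene, rose by 1.57 in *Sox7* (+/−) cells, changed by −0.39 in *Sox7* (−/−) cells, and was lower by −1.50 in *Sox7* (−/−) XEN-like cells (adjusted p = 6.9e-05). *Gata2* rose by 3.76 and 3.24 and was lower by −1.52 in *Sox7* (−/−) XEN-like cells, and the homeobox gene *Msx2* rose by 2.14 and 2.01. *Hand1*, well above background on no XEN-like array, was at least 7.11-fold lower there than in ES cells in *Sox7* (+/−) and at least 3.09-fold lower in *Sox7* (−/−) cells. It is 1 of the 4 other pathway genes called higher in *Sox7* (−/−) XEN-like cells and has no usable value there.

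The E proteins, which Id proteins bind, were all tested. *Tcf4* rose by 1.95 and 1.44 and *Tcf12* by 1.20 and 1.17, and *Tcf3* changed by −0.10 and −0.22. None was called between the genotypes. Of the proteases that mature BMP ligands or free them from chordin, *Bmp1* rose by 1.10 and 1.92, *Pcsk5*, on no ES array well above background, rose at least 3.49-fold in *Sox7* (+/−) cells, and *Pcsk6* was higher by 1.16 (adjusted p = 2.2e-06) and *Pcsk5* lower by −1.74 (adjusted p = 0.019) in *Sox7* (−/−) XEN-like cells. *Pcsk5* was well above background there on 1 of 3 arrays.

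**Figure D4:**
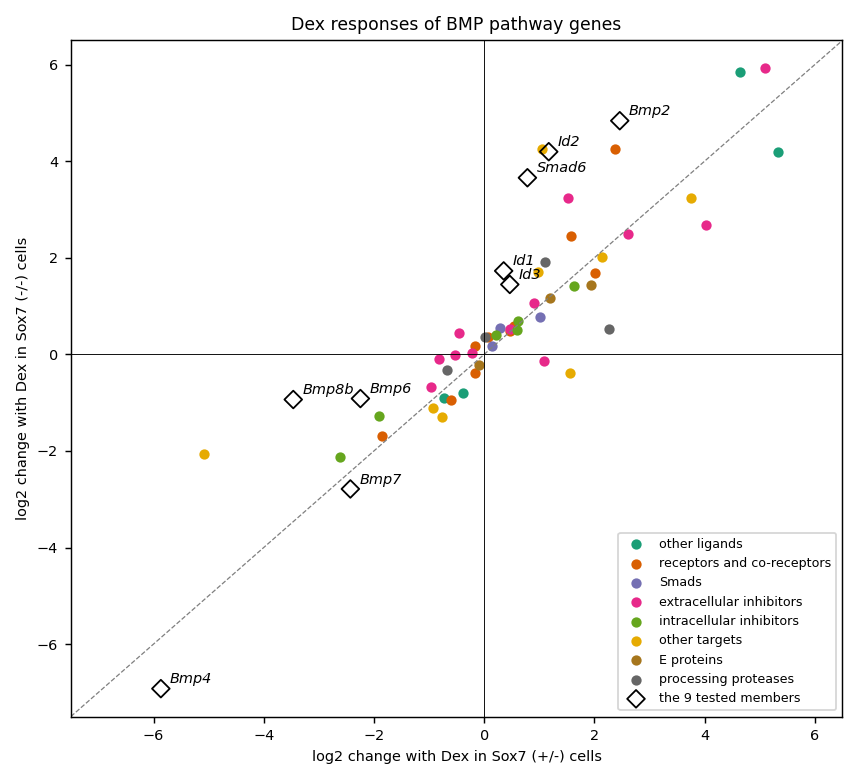
Log2 change with Dex in *Sox7* (+/−) cells (x axis) and *Sox7* (−/−) cells (y axis) of the 9 tested members (diamonds) and the 50 tested other BMP pathway genes (dots, coloured by role). The dashed line marks equal changes. *Bmp2*, *Id2* and *Smad6* lie above it by 2.38, 3.02 and 2.87, and *Bmp7* lies near it.

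As a description of patterns, the genes most like 5 of the members over the 12 arrays were sought among 13522 genes by Pearson's r, which rests on 4 groups and so mostly on their order. *Bmp2* was most like *Ank*, *Dpp4* and *Pga5* (r = 0.997 for each). *Bmp4* was most like *Grik3* and *Nr5a2* (0.998 each) and *Cpt1a* (0.996), and *Id2* like *Dhrs3* (0.995), *Serinc5* (0.994) and *DXBay18* (0.993). *Id1* was most like *Siae* (0.987), *Slc35f5* (0.985) and *Pdcd6ip* (0.983), and *Id3* like *Pigp* (0.993), *Ipp* (0.991) and *Aqp11* (0.989). Among the members, r was 0.989 between *Id1* and *Smad6*, 0.969 between *Bmp2* and *Id2* and −0.958 between *Bmp2* and *Bmp4*.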

How the data were processed

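RNA of 12 samples had been hybridized to Agilent mouse 8x60K arrays, and the authors deposited the output of Agilent Feature Extraction 10.7.3.1 for each array, with intensity values whose processed signal is background-subtracted within the array and not scaled between arrays. A deposited table of intensity values lay within 0.498% of the mean spot signal and served as an alternative.

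Control spots and outlier spots (139 to 190 per array) were left out, and spots of 1 probe were averaged as log2 of the processed signal minus the log2 of the array's 75th percentile. Of 55681 probes, the 25938 well above background on all 3 arrays of a group entered 1 linear model (limma 3.58.1, R 4.3.3), in which every group had its own mean and 5 contrasts were drawn. Empirical Bayes moderation gave 1.987 prior degrees of freedom. A gene was read by its brightest probe. A bound ("at least") compares the brighter group with the higher of the lowest signal well above background and the probe's own signal on each dim array. Probe positions are the array's own, on mm9.

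The members and the gene lists were chosen with earlier results of these data known. Named were all members, *Sox7*, the called pathway genes with the largest rise or fall in each list and comparison, and the 3 genes most like 5 members. Genes named to complete a group were added after their values were seen. The number of arrays limits the precision. The procedure was tested on simulated data. Alternatives covered background correction, normalization, scaling, filters, an intensity trend, blocks for slide and replicate number, and leaving out each array.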

Additional observations from a re-analysis of the deposited data

Results flagged for a closer look

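For 7 members the response to Dex differed between the genotypes by the test of the difference itself in the limma fit of 12 arrays, at an adjusted p under 0.05. Of all tested probes, 27.3% passed the same test. The response in *Sox7* (−/−) minus that in *Sox7* (+/−) cells was 2.38 for *Bmp2*, 1.33 for *Bmp6*, 2.53 for *Bmp8b*, 1.37 for *Id1*, 3.02 for *Id2*, 0.98 for *Id3* and 2.87 for *Smad6* on the log2 scale, and every one was higher in *Sox7* (−/−) cells. Those of *Bmp6* and *Bmp8b* were smaller falls in *Sox7* (−/−) cells. That of *Id3* was under 2-fold, and that of *Bmp8b* rests on XEN-like levels near background. With normexp background correction the values were 1.81 for *Smad6*, 1.64 for *Bmp8b* and 0.76 for *Bmp6*, and *Smad6* was at 2.32 with values as deposited. Leaving out any 1 array kept the values of *Id2* between 2.69 and 3.20, those of *Smad6* between 2.48 and 3.07 and those of *Bmp2* between 2.33 and 2.46.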

How the results depend on the processing

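Over 1146 recomputed member values 1094 kept their call, 14 lost it, 38 gained it and 0 reversed a called direction, while 26 values that were not called changed sign. *Bmp2* kept its Dex calls under every alternative run, and *Bmp7* under every one that tested it, which the filter on all 12 arrays did not. Scaling moved all probes. The median of all tested probes in the Dex response of *Sox7* (+/−) cells was 0.16, −0.33 after spike-in scaling and −0.23 for the deposited table, and the XEN-like difference was 0.00, 0.24 and 0.34.

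The counts of members called, 6, 7, 4, 4 and 6 (Dex in *Sox7* (+/−) cells, Dex in *Sox7* (−/−) cells, XEN-like cells, ES cells, difference in response), lay between 5 and 7, 7 and 8, 2 and 5, 4 and 4, and 6 and 7 with 1 array left out. The 2 came without *Sox7* (+/−) XEN-like replicate 3, and with that array left out and the slide as a block, chosen after seeing the data, it was also 2. With only probes well above background on all 12 arrays, which drops members, they were 3 for Dex in *Sox7* (+/−) cells and 2 for ES cells.

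The counts for other pathway genes, 24, 24, 7, 9 and 7, lay between 23 and 25, 23 and 26, 6 and 9, 8 and 9, and 6 and 8 with 1 array left out. With no minimum fold they were 39, 41, 18, 27 and 17. For XEN-like cells the count was 4 with normexp correction and 4 with the filter on all 12 arrays, and for the difference in response 12 with spike-in scaling and 11 with no filter on dim probes. Causes were not tested.

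With the replicate number as a block the members called were 6, 7, 4, 4 and 6 and the other pathway genes 24, 24, 7, 9 and 7. The labels give no pairing, deviations of same-numbered arrays correlated between −0.051 and 0.126, and 6 of 12 arrays correlated best with their own number.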

Other observations

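Other marker lists also differed. Over all tested probes, 11% rose and 14% fell with Dex in *Sox7* (+/−) cells, and 14.6% rose and 14.2% fell in *Sox7* (−/−) cells. Of 5 tested trophoblast genes, 4 fell with Dex in *Sox7* (+/−) cells and 1 in *Sox7* (−/−) cells. The summed signal of the 6 listed was 73.9% to 84.9% and 216% to 242% in the XEN-like cells of the 2 genotypes. The genotypes already differed in ES cells, where the sums were 408% to 422% and 181% to 190%. There 3 of the 5 were lower in *Sox7* (−/−) cells and 0 higher. *Eomes* was higher by 1.89 in *Sox7* (−/−) XEN-like cells. *Cdx2* was well above background on 3 of 3 XEN-like arrays of *Sox7* (−/−) cells and on 0 of 3 of *Sox7* (+/−) cells. Its signal was near background on the former too, at 8.43% to 12.3%, so no fold is given. Of 8 parietal endoderm genes, 6 rose with Dex in *Sox7* (+/−) cells and 5 in *Sox7* (−/−) cells, and 0 fell. *Thbd* rose by 3.50 and 5.42, while *Sparc* changed by 0.47 and 0.40 and *Vim* by 0.69 and −0.53, which were not called. Of 4 tested mesoderm genes, *Hand2* was at least 2.44-fold lower in *Sox7* (−/−) XEN-like cells, none of whose arrays read it well above background, and *Tbx6* was lower by −1.54. Of 5 fibroblast genes, 4 fell with Dex in *Sox7* (+/−) cells and 3 in *Sox7* (−/−) cells, and 0 differed between the XEN-like cells.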
